A study of Mus musculus and Homo sapiens with 4 samples.

Results

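The replication-dependent histone genes were examined in total RNA from VCaP, an established human prostate cancer cell line, and from VCaP ERα, a derivative that overexpresses oestrogen receptor alpha. Members were all entries of the expression tables with a symbol of the HIST1H, HIST2H, HIST3H or HIST4H series, and they numbered 69 of 25932 entries, carrying 66 distinct symbols. Their genomic span separated 53 short entries of 354 to 790 bp from 16 long entries of 1795 to 14940 bp. The short ones hold little beyond the histone gene itself, and the long ones hold a single longer transcript model or several models. On the inner side of the 1000 bp limit lay HIST1H1B (790 bp), HIST1H1E (785 bp) and HIST1H1A (781 bp), and on the outer side HIST2H2BF (1795 bp) and both entries of HIST2H4A (1974 bp).

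The study held 4 libraries, 1 per condition. Parental VCaP cells (passages 5 to 6) and VCaP ERα cells (passages 4 to 5) were grown alike in serum-containing DMEM, and the labels name no ligand or other treatment. Their RNA was depleted of ribosomal RNA and copied into libraries that keep strand, which the labels call poly-A-. The other libraries, from wild-type and NEAT1 knockout C57BL/6 mouse embryonic fibroblasts at passages 2 to 3, were poly-A-selected. The overexpression vector, its promoter and the clonality of the VCaP ERα line are not given in the labels. With 1 library per condition no difference below has a replicate check, no test was run, and an effect of ERα cannot be told apart from any other difference between the 2 cultures.

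Replication histone genes encode the linker histone H1 and the core histones H2A, H2B, H3 and H4, around which DNA is wound into nucleosomes. They lie in clusters, lack introns and are expressed mainly in S phase. Most of their mRNAs end in a conserved stem-loop bound by the stem-loop binding protein SLBP in place of a poly-A tail, so poly-A selection loses them and depletion of ribosomal RNA keeps them. Some members can also give longer, polyadenylated transcripts.

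The labels were checked first. ESR1, which encodes ERα, was detected at 15.7 RPKM, which are reads scaled to transcript length and to the mapped reads of the library, in cells labelled VCaP, against 209 RPKM in VCaP ERα. Prostate luminal markers, however, were at 0 to 8.18 RPKM in the library labelled VCaP, with FOLH1 at 0, KLK2 at 0.0264 and ACPP at 2.11 RPKM. All 10 of 10 were higher in VCaP ERα, where FOLH1 was at 3.16, KLK2 at 452 and ACPP at 694 RPKM. Luminal breast markers ran the other way in 6 of 7 cases, including TFF1 (1596 against 7.0 RPKM), KRT19 (1625 against 5.44 RPKM) and GREB1 (11.4 against 4.44 RPKM), with AGR3 the exception (0.776 against 6.97 RPKM). The library labelled VCaP thus lacked the defining markers of its stated cell type. What part this has in the histone values was not tested, and every histone comparison rests on that library.

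As a group, the replication histone entries were lower in VCaP ERα than in the library labelled VCaP. Of the 69 entries, 50 were lower, 11 were higher and 8 were listed at 0 in both. Over all 25932 entries, 41.2% were lower and 46.6% higher. Differences are given below as the log2 ratio of VCaP ERα over VCaP after adding 1 to each RPKM, which understates the change of low entries. By the study's own cut-off of 2 on this scale, 17 members were below -2 and 1 was above 2, against 6.56% and 2.27% of all entries. The median of the members was -0.89 and the median of all entries was 0.00.

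Many entries of the whole table were close to 0, so the members were also set beside entries with at least 1 RPKM in either library. By this measure 47 of 55 members were lower and 8 higher, against 64% and 36% of 13954 entries. Below -2 lay 17 of the 55 and above 2 lay 1, beside 12.2% and 4.21% of those entries. The members' median was -1.26 and that of the 13954 entries was -0.50. Entries of at least 1 RPKM in both libraries had a median of -0.59. Centring the libraries on it left 41 of all 69 members lower and 28 higher, the latter including the 8 at 0 in both. Over all 25932 entries 25.9% were lower after centring, and the 3161 entries at 0 in both count as higher there. Of the members, 9 changed sign with centring, which by its arithmetic can reverse only log2 ratios between -0.59 and 0.

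**Figure D1:**
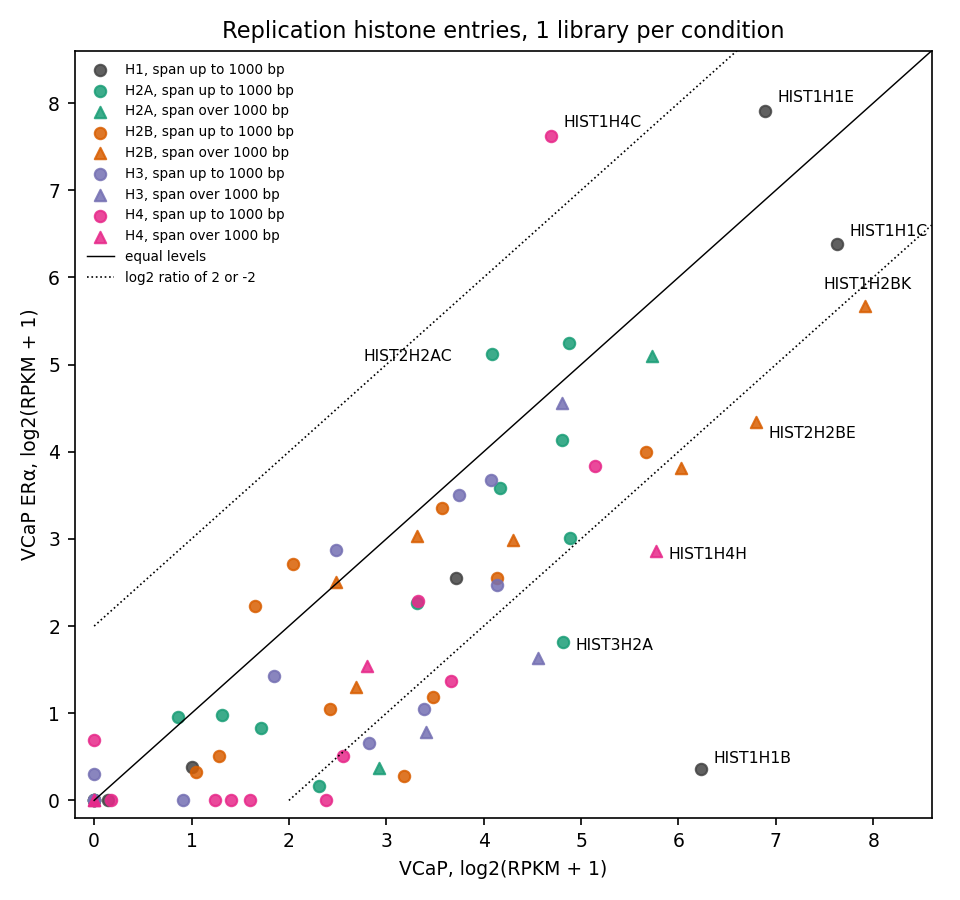
Level of each replication histone entry in VCaP (x axis) and VCaP ERα (y axis), both as log2 of RPKM plus 1, coloured by histone type and shaped by span. Most points lie below the line of equal levels, HIST1H4C lies above the upper dotted line (log2 ratio 2), and HIST1H1B is far to the lower right at 73.9 against 0.282 RPKM.

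The summed level behaved differently from the counts. The short entries summed to 833 RPKM in VCaP cells and to 737 RPKM with ERα, although 37 of the 53 were lower and 10 higher. The direction of this small difference depended on scaling, and its log2 ratio was -0.18 as deposited, 0.41 after centring and 0.35 after quantile normalization. HIST1H4C and HIST1H1E, singled out after their values were seen, made up 17.1% of the short sum in VCaP and 59.3% in VCaP ERα. Histone signal in VCaP ERα was concentrated in fewer entries, and the 5 highest held 66.9% of all members' RPKM against 50.5% in VCaP. The median level of a short entry was 4.58 RPKM in VCaP, against 1.06 RPKM in VCaP ERα. In whole cultures, a smaller share of cells in S phase and less histone RNA per S-phase cell cannot be told apart.

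HIST1H4C (hg18, chromosome 6, 26212155 to 26212544), 1 of many genes for the same H4 protein, had 24.9 RPKM in VCaP against 197 RPKM in VCaP ERα. It was 7.89-fold higher in VCaP ERα, with a log2 ratio of 2.93, and moved from rank 2094 to rank 122 of all entries. It was the only member past 2. The other H4 genes went the opposite way. HIST1H4E was at 34.3 and 13.2 RPKM, HIST1H4J at 11.6 and 1.58 RPKM, HIST1H4B at 9.01 and 3.89 RPKM, HIST1H4D at 4.90 and 0.427 RPKM, and HIST1H4F at 4.23 RPKM and 0. Of 11 short H4 entries 9 were lower and 2 higher, the second being HIST1H4L, listed at 0 and at 0.611 RPKM. HIST1H4C alone accounted for 26.5% of the short H4 sum in VCaP and 90.9% in VCaP ERα, while the remaining short H4 entries summed to 69.3 RPKM and 19.8 RPKM.

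Linker histone H1 held the lowest log2 ratio of all members and 1 of the highest, while its other entries lay closer together. HIST1H1B (chromosome 6, 27942549 to 27943338), which encodes H1.5, had 73.9 RPKM in VCaP against 0.282 RPKM in VCaP ERα. Its log2 ratio of -5.87 was the lowest of any member, and its rank went from 576 to 17583. HIST1H1E (chromosome 6, 26264538 to 26265322), which encodes H1.4, had 118 RPKM in VCaP against 240 RPKM in VCaP ERα. It was 2.04-fold higher in VCaP ERα, and was the highest histone entry of the latter. HIST1H1C, the gene for H1.2, was at 196 and 82.3 RPKM (log2 ratio -1.24), and HIST1H1D, for H1.3, at 12.2 and 4.87 RPKM (-1.17). The remaining H1 genes were near the bottom of the range in both libraries. The testis-type HIST1H1T was at 1.00 and 0.307 RPKM, and HIST1H1A, for H1.1, at 0.10 RPKM and 0.

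**Figure D2:**
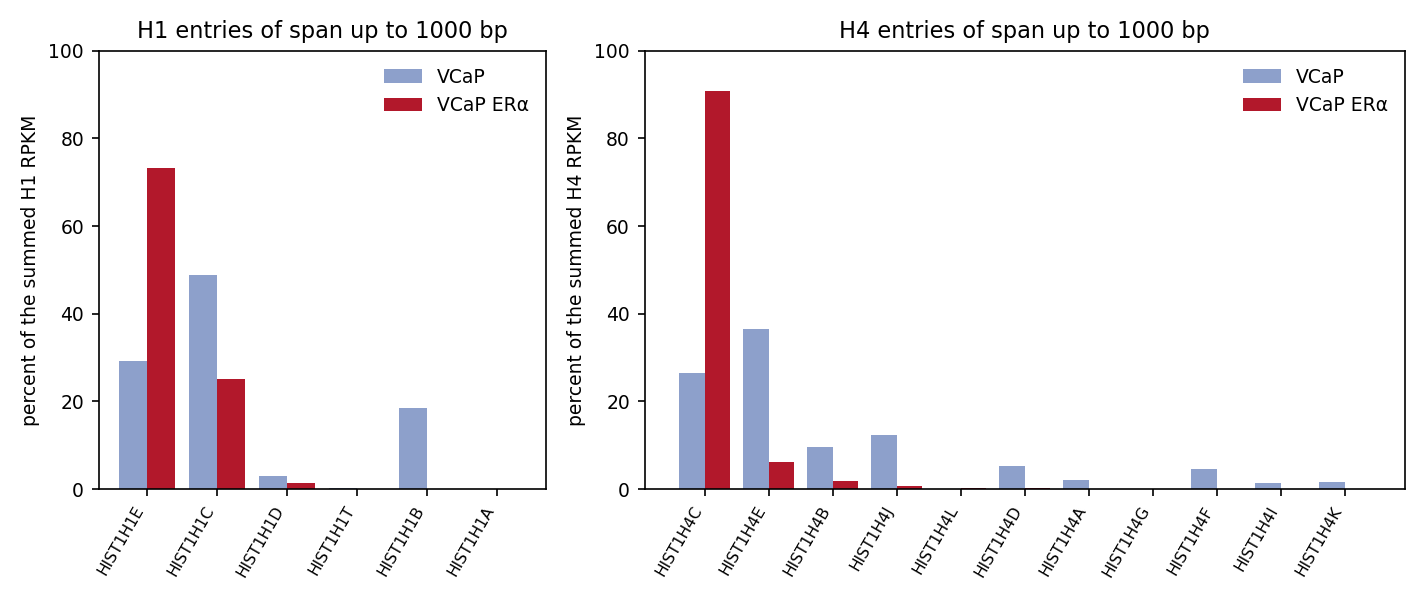
Share of the summed RPKM of the 6 H1 entries (left) and of the 11 short H4 entries (right) held by each gene in VCaP and VCaP ERα, in percent. HIST1H1E takes 29.3% of H1 in VCaP and 73.2% in VCaP ERα, and HIST1H4C takes 26.5% and 90.9% of short-entry H4.

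Shares within a library do not depend on how the 2 libraries are scaled to each other by a common factor. By share, HIST1H1C led H1 in VCaP with 48.9% of the summed H1 RPKM, followed by HIST1H1E with 29.3% and HIST1H1B with 18.4%. In VCaP ERα the order was HIST1H1E with 73.2%, HIST1H1C with 25.1% and HIST1H1D with 1.49%, while HIST1H1B held 0.0859%. The sum over H1 was 401 RPKM in VCaP against 328 RPKM in VCaP ERα, a difference whose log2 ratio was -0.29 as deposited but 0.30 after centring and 0.10 after quantile normalization.

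How many sequenced fragments stand behind the low values was read from the tables themselves. Among short entries with a single transcript identifier, RPKM multiplied by span recurred at fixed values within 0.4%. In VCaP these were 146 (20 of 494 entries above 0) and 97.2 (17 entries), and in VCaP ERα 111 (46 of 1295 entries above 0) and 94.7 (34 entries). If such a step is what 1 fragment adds, which is an inference from the values, HIST1H1B rested on 401 to 600 fragments in VCaP and on 2.00 to 2.35 in VCaP ERα. HIST1H4C stood at 66.8 to 100 in VCaP and 690 to 810 in VCaP ERα by the same reading. The meaning of the second step size is not known, and some values lay below 1 step, such as HIST1H2AB at 0.509 to 0.598 in VCaP ERα and HIST1H1A at 0.537 to 0.804 and HIST1H4G at 0.324 to 0.485 in VCaP, so the numbers of fragments are rough. The steps of VCaP ERα were 0.764 and 0.974 times those of VCaP, and counted in steps HIST1H1B differed between the libraries by far more than that. HIST1H1T and HIST1H4L in VCaP ERα also stood near 2.00 steps, and values this low have wide counting error.

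H2A and H2B form the dimers that flank the H3-H4 tetramer of the nucleosome. Among H2A entries, 3 were higher, 10 lower and 3 at 0 in both, with a median log2 ratio of -0.61. The 2 with the highest level in VCaP ERα were both above VCaP: HIST1H2AD was at 28.4 and 37.1 RPKM, and HIST2H2AC at 16.0 and 33.7 RPKM (log2 ratio 1.03). HIST3H2A, at a similar level in VCaP (27.2 RPKM), stood at only 2.52 RPKM in VCaP ERα, and its log2 ratio of -3.0 was the lowest after HIST1H1B. HIST1H2AM was at 28.6 and 7.04 RPKM (-1.88, just short of the cut-off), HIST1H2AJ at 8.95 and 3.80 RPKM, and HIST1H2AB at 3.97 and 0.119 RPKM. HIST2H2AB, at 27.0 and 16.5 RPKM, and HIST1H2AE, at 17.0 and 11.0 RPKM, were lower as deposited but higher after quantile normalization. The H2A sum was 220 RPKM in VCaP against 148 RPKM in VCaP ERα, with a log2 ratio of -0.58 that came to 0.01 after centring and 0.11 after quantile normalization.

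H2B had the largest difference in summed level of the 5 types, with 560 RPKM in VCaP against 144 RPKM in VCaP ERα. Its share of all members' RPKM was 38.3% in VCaP and 15.9% in VCaP ERα. Of 18 H2B entries 14 were lower, 3 were higher and 1 was at 0 in both, with a median of -1.35. Much of the difference lay in the long entries described below, but short H2B entries summed to 107 and 41.5 RPKM as well. HIST1H2BG was at 49.7 and 15 RPKM, HIST1H2BM at 16.5 and 4.88 RPKM, HIST1H2BH at 10.2 and 1.27 RPKM, and HIST1H2BI at 8.04 and 0.217 RPKM. Above VCaP were HIST1H2BE, at 3.13 and 5.53 RPKM, and HIST1H2BL, at 2.13 and 3.68 RPKM. HIST1H2BF, at 10.9 and 9.25 RPKM, was nearly level and changed sign with scaling.

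The 14 H3 entries were lower in 10 cases, higher in 2 and at 0 in both in 2, and their median was -0.41 (0.18 after centring, -0.03 after quantile normalization). Within H3 the genes split into a group near equal levels and a group well below. HIST1H3B was at 15.9 and 11.8 RPKM and HIST1H3C at 12.4 and 10.3 RPKM, small differences that changed sign with either scaling, and HIST1H3I was at 4.58 and 6.30 RPKM. Well below VCaP were HIST1H3F at 16.6 and 4.53 RPKM, HIST1H3G at 9.47 and 1.07 RPKM, and HIST1H3J at 6.08 and 0.582 RPKM. HIST3H3, the testis-type H3 gene, was at 0 and 0.231 RPKM.

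**Figure D3:**
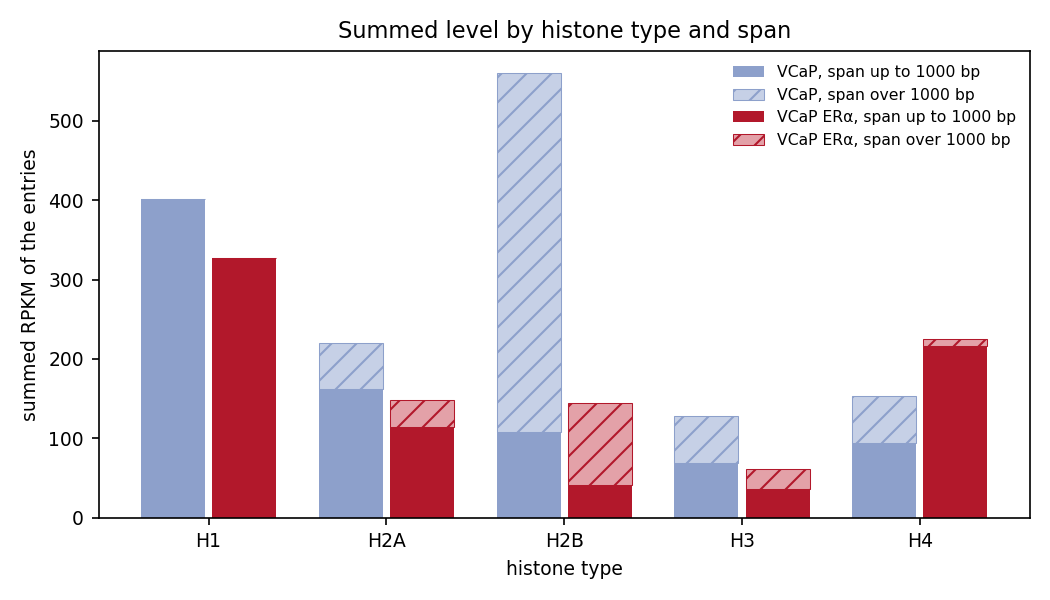
Summed RPKM of the H1, H2A, H2B, H3 and H4 entries in VCaP and VCaP ERα, with short and long entries stacked. Long entries make up most of H2B in VCaP, where they sum to 453 RPKM against 103 RPKM in VCaP ERα, and as deposited H4 is the only type with a higher sum in VCaP ERα (154 against 225 RPKM), joined by H1 and H2A after centring or quantile normalization.

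Most long entries were lower in VCaP ERα. Of 16, 13 were lower, 1 was higher and 2 were at 0 in both, with a median log2 ratio of -1.35, and 7 were below -2. With at least 1 RPKM in either library, 13 of 14 were lower and 7 below -2, against 65.8% and 12.6% of 13248 other long entries, and the medians were -1.80 and -0.55. Whether long or short entries had the lower median depended on the span limit. With 500 bp in place of 1000 bp it was -0.63 for long and -0.90 for short entries. That limit, however, counts as long the 6 H1 entries, HIST1H2AE and the duplicated HIST2H3C and HIST2H2AA3, whose copies were at 0 in both libraries. With 2000 bp the medians were -2.21 for long and -0.645 for short entries. The long entries summed to 630 RPKM in VCaP against 170 RPKM in VCaP ERα, 3.71-fold lower, and the sum stayed lower after centring (-1.30) and quantile normalization (-1.28). HIST1H2BK, the highest histone entry in VCaP, was at 241 and 50.1 RPKM (-2.24). HIST2H2BE was at 110 and 19.3 RPKM (-2.45), HIST1H2BD at 64.1 and 13.1 RPKM (-2.21), and HIST1H2BC at 18.8 and 6.94 RPKM. HIST1H4H was at 53.5 and 6.27 RPKM (-2.91) and HIST1H3H at 22.6 and 2.10 RPKM (-2.93). Lower levels were also recorded for the joint HIST1H3F/HIST1H3E entry (9.60 and 0.725 RPKM), HIST1H2AG (6.61 and 0.294 RPKM), HIST4H4 (5.98 and 1.91 RPKM) and HIST1H2BJ (5.46 and 1.47 RPKM).

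HIST1H2AC, at 52.1 and 33.3 RPKM, differed less than these, with a log2 ratio of -0.63. Closer to equal were the joint HIST1H3D/HIST1H3F entry (27.0 and 22.5 RPKM), HIST2H2BF (8.96 and 7.18 RPKM) and HIST1H2BN (4.57 and 4.68 RPKM), the first 2 of which changed sign with scaling. The HIST1H3D/HIST1H3F entry overlaps HIST1H2AD and the HIST1H2BK entry overlaps HIST1H4I, and the sources used here do not say whether counting used strand, so reads of these pairs may be mixed. A list of 9 replication histone genes known to give polyadenylated transcripts as well, all but HIST1H1C long here, was lower in 9 of 9 cases as deposited. Its median was -1.39, beside 64% lower and -0.50 among all entries reaching 1 RPKM in either library. The list median was -0.80 after centring and -0.90 after quantile normalization. A poly-A form and a stem-loop form of 1 gene cannot be separated in a single RPKM value.

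Short entries were also compared with other small genes, because small entries behaved differently from the rest of the table. Among 89 non-histone entries of the same span range with at least 1 RPKM in either library, 55.1% were higher and 44.9% lower in VCaP ERα, with a median of 0.27. Among the 41 short histone entries that met the same minimum, 34 were lower, 7 were higher and the median was -1.17. Below -2 lay 10 of the 41 and above 2 lay 1, beside 5.62% and 4.49% of the other small entries.

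**Figure D4:**
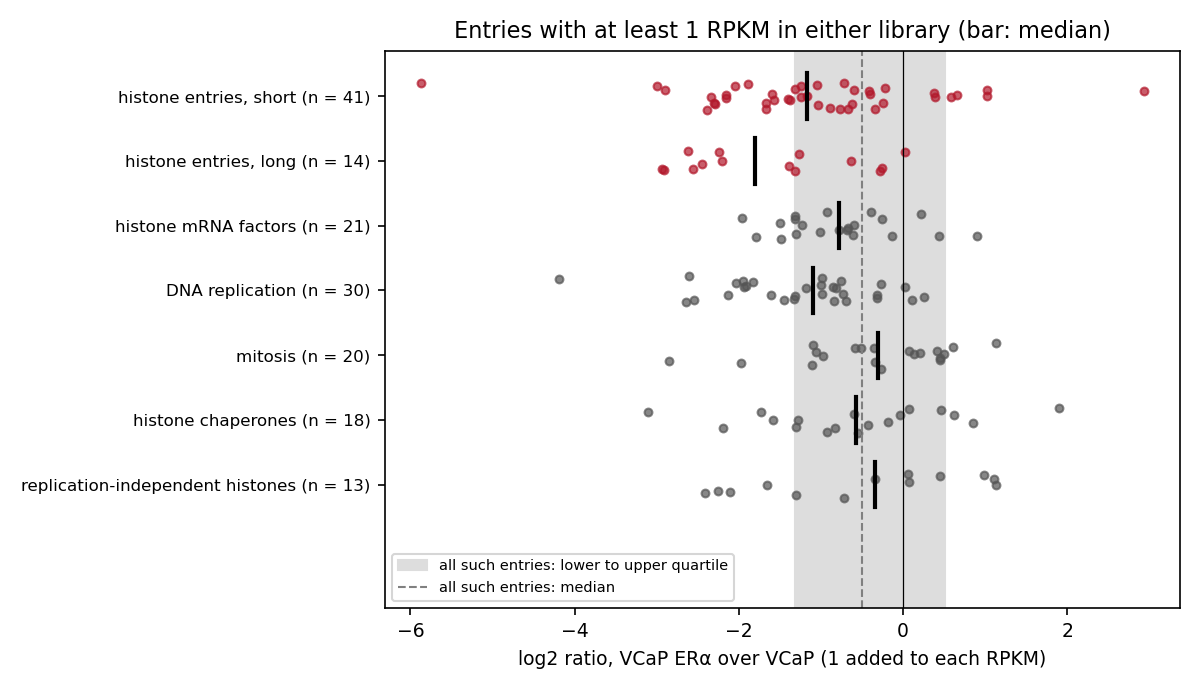
Log2 ratio of VCaP ERα over VCaP for short and long histone entries and for genes of 5 comparison lists with at least 1 RPKM in either library, with black bars at the medians. The grey band spans the lower to upper quartile of all such entries (-1.32 to 0.51) and the dashed line is their median (-0.50), so the long histone entries (-1.80) have their median below the band and the short ones (-1.17) inside its lower part.

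By position, 54 entries belonged to the HIST1 cluster of chromosome 6, where 43 were lower, 9 higher and 2 at 0 in both. With at least 1 RPKM in either library 41 of 48 were lower and 7 higher, against 64% and 36% of all such entries. Gaps of over 200 kb divided the cluster into 4 blocks. The largest, of 269 kb with 32 entries, held both HIST1H4C and HIST1H1E and had sums of 821 and 733 RPKM, though 28 of its entries were lower and 4 higher. In the block of 22.6 kb that holds HIST1H2BK all 5 entries were lower as deposited, and the sum was 256 and 52.9 RPKM. Of these, HIST1H2AH (1.49 and 0.974 RPKM) changed sign with centring, and HIST1H4I (1.37 RPKM and 0) overlaps HIST1H2BK. The block of 86.4 kb at the far end, which holds HIST1H1B, had 10 lower and 5 higher entries and summed to 189 and 38.3 RPKM. The 5 included HIST1H4L, at 0 and 0.611 RPKM, and HIST1H2AK and HIST1H2BN, nearly level at log2 ratios of 0.10 and 0.03. The first block had 2 entries, HIST1H2AA and HIST1H2BA, both testis-type and both at 0 in each library.

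Neighbours did not share the values of the entries at the extremes. Beside HIST1H1B, HIST1H2AL was at 2.28 and 0.776 RPKM and HIST1H3I at 4.58 and 6.30 RPKM. Of 38 non-histone entries lying between the outermost histone genes of chromosome 6, 20 were higher, 12 lower and 6 at 0 in both, with a median of 0.03. Over all entries 46.6% were higher and 41.2% lower. Only 9 of the 38 reached 1 RPKM in either library, among which 3 were higher and 6 lower, with a median of -0.78. Of all entries reaching that level 36% were higher and 64% lower, with a median of -0.50.

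**Figure D5:**
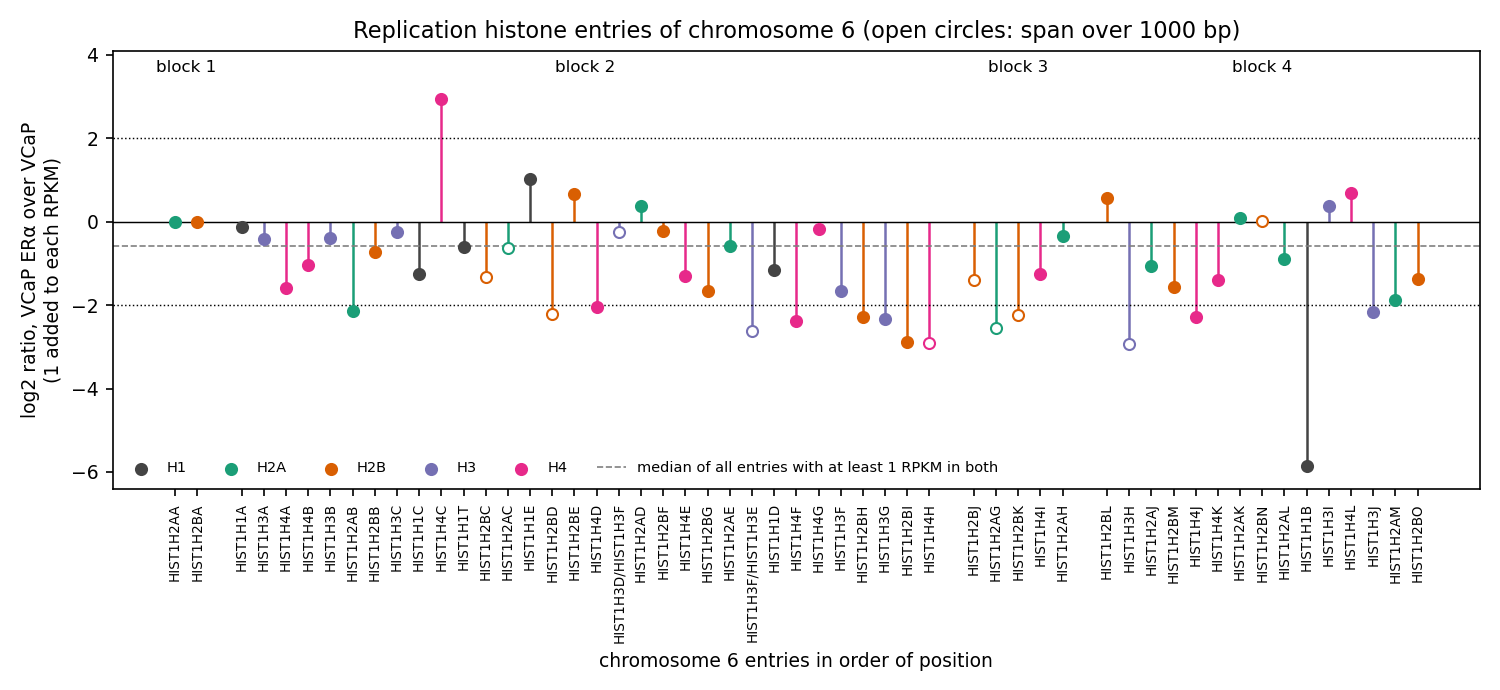
Log2 ratio of VCaP ERα over VCaP for the HIST1 entries of chromosome 6 in order of position, evenly spaced with a gap between blocks, with dotted lines at 2 and -2, a dashed line at the median of entries that reached 1 RPKM in each library (-0.59) and open circles for long entries. The stems of HIST1H4C (2.93) and HIST1H1E (1.02) point up among mostly lower neighbours, and HIST1H1B (-5.87) stands beside entries of much smaller difference.

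H2A and H2B genes are often arranged head to head with a shared promoter region. H2A and H2B entries at most 1000 bp apart formed 12 pairs, with gaps of 205 to 786 bp. HIST2H2BE was paired with HIST2H2AC and also with HIST2H2AB, which lies beyond HIST2H2AC and is not adjacent to it. In 9 pairs both members differed in the same direction, in 2 in opposite directions and in 1 a member was at 0 in both libraries. With 50 of the 69 members lower and 11 higher, most pairs of any members would share a direction, so the count says little of neighbours. The 9 include HIST1H2AK with HIST1H2BN, nearly level at 0.10 and 0.03. They also include pairs with HIST2H2AB, HIST1H2AE and HIST1H2AH, each of which changed sign under 1 of the scalings, as did HIST1H2AK. The opposite pairs were HIST2H2AC (log2 ratio 1.03) with HIST2H2BE (-2.45), and HIST1H2AD (0.37) with HIST1H2BF (-0.22), and HIST1H2BF changed sign with scaling. HIST2 as a whole had 11 entries, 6 of them at 0 in both libraries, and summed to 163 and 76.7 RPKM. HIST3 had 3 entries that summed to 28.6 and 3.17 RPKM.

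Values of 0 were common among duplicated genes. In VCaP 10 members (14.5%) and in VCaP ERα 15 (21.7%) were listed at 0, beside 33.8% and 13.9% of all entries. At 0 in both libraries were 8 members. Of these 8, 6 were the paired copies of HIST2H2AA3, HIST2H3C and HIST2H4A. Among all entries that shared a symbol and a span with another entry, 80.6% of 695 were at 0 in both libraries, against 10.3% of the 25237 others, so a value of 0 for a duplicated gene says nothing of its expression. The treatment of reads that match several near-identical histone genes is not given in the sources used here, and levels of single H2A, H2B, H3 and H4 genes are uncertain to that extent.

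The factors that act on replication histone genes were mostly lower as deposited, with SLBP, NPAT and CASP8AP2 the exceptions. Of 22 genes listed, 21 were found, of which 18 were lower and 3 higher, with none past 2 in either direction and a median of -0.78, beside 64% lower and -0.50 among all entries reaching 1 RPKM in either library (list median -0.19 after centring, -0.21 after quantile normalization). SLBP, which binds the stem-loop, was at 23.5 and 27.6 RPKM. NPAT, the cyclin E-CDK2 substrate that activates histone transcription, was at 2.63 and 5.80 RPKM, and CASP8AP2 (FLASH), which acts in both transcription and 3′ processing, at 2.88 and 4.27 RPKM. Core parts of the U7 particle, which directs cleavage of the histone 3′ end, were lower, with LSM10 at 5.88 and 5.29 RPKM and LSM11 at 3.12 and 0.759 RPKM. ZNF473, a U7-associated zinc finger protein, was at 5.59 and 4.52 RPKM.

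The cleavage factors were lower in each case as deposited. CPSF3, the endonuclease, was at 11.4 and 5.15 RPKM, its partner CPSF2 at 13.9 and 8.24 RPKM, the scaffold SYMPK at 7.52 and 2.42 RPKM, and CSTF2 at 10.7 and 2.00 RPKM. CPSF3L, a relative of CPSF3, was at 6.56 and 3.97 RPKM. Factors of histone mRNA translation and decay included MIF4GD (16.7 and 5.31 RPKM), UPF1 (15.8 and 5.77 RPKM) and the exonuclease ERI1 (2.65 and 0.930 RPKM). HINFP, which activates H4 genes, was at 7.20 and 3.78 RPKM, and COIL, the marker protein of Cajal bodies, at 22.3 and 8.47 RPKM. Regulators of entry into S phase were lower too as deposited, with CCNE1 at 6.14 and 1.06 RPKM, CCNE2 at 5.32 and 1.24 RPKM, CDK2 at 12.9 and 7.74 RPKM, E2F1 at 2.68 and 1.44 RPKM, and CDC25A at 2.68 and 1.81 RPKM. The log2 ratios of LSM10 (-0.13), ZNF473 (-0.26) and CDC25A (-0.39) lay above -0.59, the median of entries of at least 1 RPKM in both libraries. That of E2F1 (-0.59) lay at it, and those of CPSF3L (-0.61), CDK2 (-0.67) and CPSF2 (-0.69) lay close below it.

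DNA replication genes were mostly lower as well. Of 30, 27 were lower and 3 higher, 6 were below -2 and the median was -1.09. Of all entries with 1 RPKM or more in either library 64% were lower and 12.2% below -2. The list median stayed negative after centring (-0.50) and quantile normalization (-0.77). GINS2, part of the replicative helicase, was at 21.3 and 0.223 RPKM and the helicase subunit MCM3 at 21.1 and 2.53 RPKM, whereas the polymerase subunit POLA1 was at 0.932 and 1.31 RPKM and the clamp loader subunit RFC3 at 4.53 and 4.94 RPKM. Mitotic genes were mixed, with 9 of 20 higher, 11 lower and a median of -0.31 that became 0.28 after centring and 0.37 after quantile normalization. The mitotic kinase CDC2 was at 4.16 and 10.3 RPKM and TOP2A at 7.23 and 11.6 RPKM, while AURKB was at 10.3 and 0.579 RPKM and AURKA at 15.7 and 3.25 RPKM.

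Histone genes outside the replication set gave no common direction, with 8 of 18 entries higher, 7 lower and 3 at 0 in both. With at least 1 RPKM in either library 6 of 13 were higher and 7 lower, beside 36% and 64% of all such entries. The 6 include HILS1 and 1 of 2 H3F3B entries, which barely reached that minimum. H1F0, the linker histone of resting and differentiated cells, was at 19.4 and 43.7 RPKM and HILS1 at 0 and 1.16 RPKM. H3F3B, which encodes H3.3, was at 469 and 97.9 RPKM in its main entry and at 0.920 and 1.01 RPKM in the other. H1FX was at 45.7 and 7.79 RPKM. Histone chaperones were lower in 13 of 18 cases with a median of -0.58, near the 64% and -0.50 of all entries with 1 RPKM or more in either library. Their median was 0.01 after centring and -0.05 after quantile normalization. ASF1B, the proliferation-linked H3-H4 chaperone, was at 14.4 and 0.798 RPKM and UBN1 at 10.1 and 1.43 RPKM, whereas NAP1L1, an H2A-H2B chaperone, was at 24.0 and 92.5 RPKM and ATRX at 7.44 and 14.3 RPKM. Other RNAs without a poly-A tail did not move together, with MALAT1 at 127 and 503 RPKM, RPPH1 at 1321 and 2317 RPKM, TERC at 14.4 and 5.66 RPKM and SCARNA2 at 22.2 and 13.1 RPKM.

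The selection of RNA differed between the human and mouse libraries. Replication histone entries held 0.547% of the summed RPKM of all entries in VCaP and 0.460% in VCaP ERα. In the poly-A-selected fibroblast libraries, 68 mouse entries of the same symbol series held 0.0441% in wild-type and 0.0339% in NEAT1 knockout cells. Species and cell type differ as well, so these values stand side by side only. Most of the fibroblast signal came from Hist1h2bc, at 91.7 and 73.0 RPKM, and Hist1h1c, at 23.8 and 25.3 RPKM, both relatives of genes on the list with polyadenylated forms.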

How the data were processed

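Total RNA was sequenced from 4 cell cultures, 1 library each, and the 2 human libraries were analysed here. The authors deposited RPKM values per gene entry, with no read counts. Per the labels, the submitters' processing notes name CASAVA 1.8 and the builds mm10 and hg18, so human coordinates are given as hg18. Library totals and the rules for counting reads are not given in the sources used here. From the deposited RPKM values, log2((VCaP ERα + 1)/(VCaP + 1)) was computed with Python 3.11.15, numpy 2.4.6 and pandas 2.3.3, and figures were drawn with matplotlib 3.10.9. The code was checked on simulated data. Named entries were HIST1H4C, HIST1H1B, all H1 entries, members of at least 5 RPKM in either library, members past 2 or -2, the 5 highest and 5 lowest log2 ratios, those next to the span limit, all histone mRNA factors, and the 2 highest and 2 lowest of each other list, except 1 marker gene that is not reported here. HIST1H2AH, HIST1H2AK, HIST1H2AL, HIST1H2BL, HIST1H2BN and the members at 0 were named after their values were seen. The members and lists were chosen with earlier results of these data known. The alternatives tried were 0.1 as pseudocount, only entries with 1 RPKM or more, centring, quantile normalization, 1 entry per symbol, span limits of 500 and 2000 bp, and single-symbol entries. No interval is given, since intervals need read counts.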

Additional observations from a re-analysis of the deposited data

How the results depend on the processing

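With 1 library per condition no replicate could be left out, and no paired analysis was possible because no condition had a second library. Centring on entries of at least 1 RPKM in both libraries (a shift of 0.59 on the log2 scale) gave 28 higher members, 6 below -2, medians of -0.13 for short and -0.76 for long entries, and 0.41 for the log2 ratio of the short sum. After centring 59.4% of members and 25.9% of all entries were lower, and 3.35% of all entries were below -2. In the shares lower, entries at 0 in both libraries (8 members and 3161 of all entries) count as higher, so the 25.9% is not a share of expressed entries. Quantile normalization gave 18 higher members, 9 below -2, a long median of -0.77 and 0.35 for the short sum, with 73.9% of members and 53.1% of all entries lower and 3.84% of all entries below -2. A pseudocount of 0.1 put 2 members above 2 and 22 below -2, against 16.3% and 11.4% of all entries. The long median was -0.63 with a span limit of 500 bp (short median -0.90), -2.21 with 2000 bp and -2.24 for single-symbol entries. The limit of 500 bp counts H1 entries and duplicated genes listed at 0 as long. Leaving out HIST1H4C and HIST1H1E, chosen after seeing the data, took the short sum to -1.20, a direction that their choice as the highest entries in VCaP ERα favours. The log2 ratio stayed between 2.93 and 3.52 for HIST1H4C and between -7.60 and -5.28 for HIST1H1B under the pseudocount, minimum-level and scaling alternatives. Of these, only quantile normalization could have reversed the sign of a member past 2 or -2, and it reversed none.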
